A study of Mus musculus with 6 samples.

Results

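Cytosolic sensors of RNA and DNA were examined in H10 and C8 cells as a group of 10 genes. They were chosen by function, with earlier results of these data known. The genes were Ddx58 (RIG-I), Ifih1 (MDA5), Dhx58 (LGP2), Mavs, Cgas, Sting1 (listed as Tmem173), Zbp1, Eif2ak2 (PKR), Adar and Trex1. All 10 were found among 19930 measured genes, and each was read by 1 feature of its own on the array. H10 is the RAW264.7-derived line that fuses into multinucleated osteoclasts with sRANKL, and C8 is the RAW264.7-derived line that does not fuse. RAW264.7 is a mouse macrophage line. Each line is a single clone from limiting dilution and carries a retroviral Lifeact-mEGFP construct with puromycin resistance, so that the capacity to fuse and other properties of the clone cannot be told apart. All cells had received sRANKL (60 ng/mL) for 2 days, and no arrays without it were analysed here. RNA was measured on 3 Mouse Gene 1.0 ST arrays of H10 cells and 3 of C8 cells. Separate cultures are stated neither in the labels nor in the methods for arrays of the same line, and the p-values therefore measure only a spread between arrays that may be technical. In such bulk RNA, fewer cells of a type and less RNA per cell cannot be told apart.

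RIG-I and MDA5 are helicases that bind viral or other double-stranded RNA in the cytosol and signal through MAVS on mitochondria, and LGP2 modulates both. cGAS binds cytosolic DNA and makes the messenger cGAMP, which is read by STING. Both routes end in the kinase TBK1 and in IRF transcription factors, which switch on interferon genes, and secreted interferon in turn induces several of the sensors. ZBP1, PKR and ADAR bind double-stranded or Z-form nucleic acid, and TREX1 is the nuclease that degrades DNA before cGAS meets it.

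The 3 RIG-I-like receptors and 4 of the other members rose in H10 cells, while the adaptor genes Mavs and Sting1 and the DNA sensor gene Cgas did not pass the test. Of the 10 members, 7 were higher in H10 cells, 0 were lower and 3 did not pass, at an adjusted p under 0.05 from limma (two-sided, Benjamini-Hochberg over all features). Over all 19930 genes, 1.85% were higher and 1.04% lower by the same rule. Since the members were chosen with earlier results of these data known, such shares describe the group and do not test it. The median log2 fold change (the mean log2 value of H10 minus that of C8) was 0.98 over the members and -0.03 over all genes. Members with a fold of 5 or more numbered 3, the RIG-I-like receptors, against 0.206% of all genes. In 7 members, the same 7 that passed, every H10 array was above every C8 array, a pattern seen in 7.74% of all genes. At an unadjusted p under 0.05, 7 members were higher and 1 lower, against 6.10% and 7.67% of all genes. An exact permutation of 3 against 3 arrays cannot give a p under 0.1, so the tests rest on the fit across all features.

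**Figure D1:**
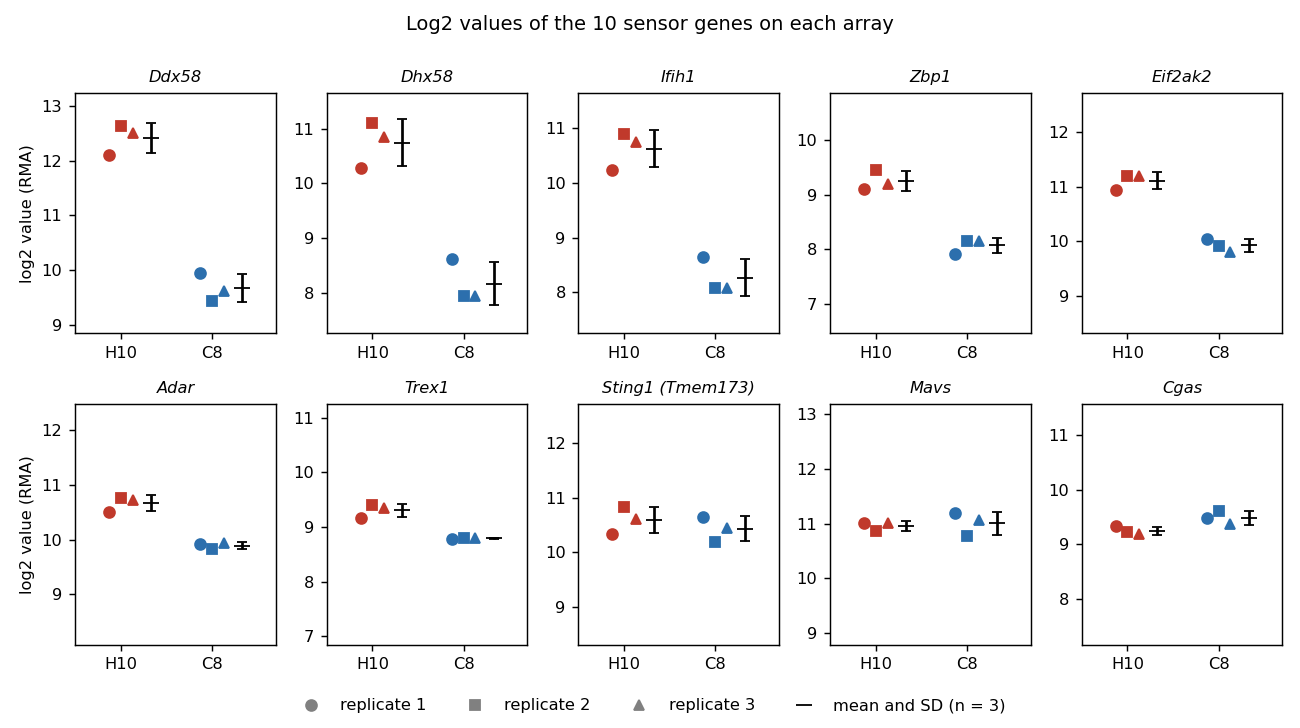
Log2 RMA values of the 10 sensor genes on each array (symbols by replicate number), with H10 cells left of C8 cells; bars beside the points give mean and SD (n = 3). Each panel spans the same range of log2 units, and the H10 arrays lie above the C8 arrays without overlap in 7 panels, from Ddx58 to Trex1.

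Among the RNA receptors, Ddx58, whose product RIG-I recognizes RNA with a 5′ triphosphate, had log2 values of 12.10, 12.64 and 12.51 in H10, against 9.94, 9.43 and 9.62 in C8. The lines did not overlap and were 2.16 log2 units apart at their nearest arrays. This was a 6.74-fold difference, or 2.75 on the log2 scale with a 95% interval of 2.32 to 3.18 (standard error, SE, 0.18; adjusted p = 0.00151). Ifih1, whose product MDA5 binds long double-stranded RNA, had 10.24, 10.89 and 10.75 in H10, against 8.65, 8.07 and 8.08 in C8. Its lowest H10 array and its highest C8 array were both replicate 1. The difference was 5.13-fold, with an interval of 3.56 to 7.41 (2.36 ± 0.22 log2 units, estimate ± SE; adjusted p = 0.00506). Dhx58 encodes LGP2, a related helicase without the signalling domains of the other two. Its log2 values were 10.28, 11.11 and 10.85 in H10, against 8.61, 7.93 and 7.94 in C8. As for Ifih1, replicate 1 was the lowest H10 array and the highest C8 array. Dhx58 was 6.01-fold higher, with an interval of 3.87 to 9.33 (2.59 ± 0.26 log2 units, estimate ± SE; adjusted p = 0.00675). The 95% intervals of the 3 receptors overlapped one another, so no order among them is given. The lowest bound, 1.83 for Ifih1 on the log2 scale, lay above the highest bound of the other members, 1.46 for Zbp1.

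**Figure D2:**
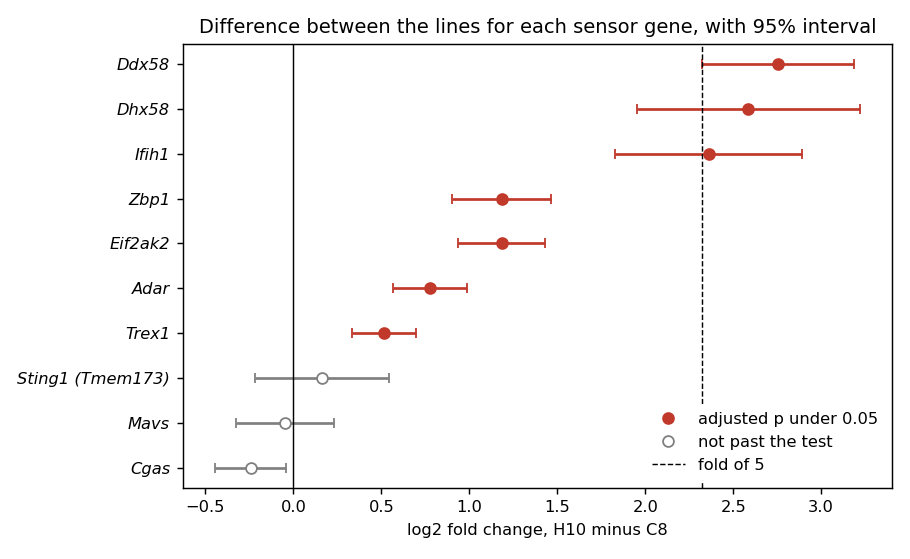
Log2 fold change of each sensor gene, H10 minus C8, with its 95% interval from limma (3 arrays a line); filled points passed the test and the dashed line marks a fold of 5. The 3 RIG-I-like receptors stand at 2.36 to 2.75, the next 4 genes at 0.52 to 1.18, and Sting1, Mavs and Cgas at 0.16, -0.05 and -0.24.

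Because 7 members were higher in H10 cells, the promoters of the members were searched for the core of the interferon-stimulated response element, a site in the promoters of many genes that interferon induces. Windows from 250 bases before to 50 after a RefSeq start were taken from RefSeq (GRCm38.p6), and 7 members had at least 1 window. The core, GAAA followed by any 2 bases and again GAAA, searched on both strands, was present in the windows of Ddx58, Ifih1 and Eif2ak2. Adar (3 windows) and Trex1 (2 windows), also higher in H10 cells, held no core, and neither did Mavs or Cgas. The match began at base 3 of the Ddx58 transcript, on the opposite strand, at base 33 of Ifih1 and at base 19 of Eif2ak2, both on the same strand, counting the start as base 1. The windows of 30 bases that hold it are shown on the gene's strand, with the match in capitals, because these 3 genes were among those higher in H10 cells.
Ddx58, chr4:40239804-40239833, minus strand: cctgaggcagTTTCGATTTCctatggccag
Ifih1, chr2:62646206-62646235, minus strand: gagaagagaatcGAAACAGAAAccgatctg
Eif2ak2, chr17:78882535-78882564, minus strand: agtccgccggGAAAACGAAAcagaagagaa

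Longer stretches, from 250 bases before the start to 30 after it, are given for Ddx58, as a member with a match that was higher in H10 cells, and for Mavs and Cgas, as members with no match that did not pass the test.
Ddx58, chr4:40239796-40240075, minus strand: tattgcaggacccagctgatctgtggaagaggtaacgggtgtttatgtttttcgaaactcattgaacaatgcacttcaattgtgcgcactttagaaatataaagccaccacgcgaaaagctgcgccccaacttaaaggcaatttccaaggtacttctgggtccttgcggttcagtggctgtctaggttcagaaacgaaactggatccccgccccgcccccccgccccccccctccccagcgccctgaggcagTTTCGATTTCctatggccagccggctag
Mavs, chr2:131233813-131234092, plus strand: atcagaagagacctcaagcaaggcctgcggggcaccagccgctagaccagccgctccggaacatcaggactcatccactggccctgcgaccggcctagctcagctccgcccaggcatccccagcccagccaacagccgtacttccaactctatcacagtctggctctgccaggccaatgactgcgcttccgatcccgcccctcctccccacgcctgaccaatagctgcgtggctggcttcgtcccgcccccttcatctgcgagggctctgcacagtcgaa
Cgas, chr9:78443208-78443487, minus strand: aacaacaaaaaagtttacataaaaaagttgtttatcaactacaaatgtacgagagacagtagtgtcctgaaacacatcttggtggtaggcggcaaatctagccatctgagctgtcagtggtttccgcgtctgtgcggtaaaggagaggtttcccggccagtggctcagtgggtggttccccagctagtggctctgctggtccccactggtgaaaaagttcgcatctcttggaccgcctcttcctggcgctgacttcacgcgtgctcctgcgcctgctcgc

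Such a match is a description of the letters and not of a bound site. The core was found in 3.44% of all 32851 windows and, among tested genes with a window, in 605 of 15555 (3.89%). It was present for 42 of 291 genes that were higher in H10 cells (14.4%) and for 5 of 174 that were lower (2.87%). Among the members with a window it was present for 3 of 5 that were higher in H10 cells and 0 of 2 that did not pass. Of the listed genes around the sensors that did not pass the test, 11 of 79 also held it (13.9%), and so did 1 of 6 that were higher in H10 cells, Ddx60. Dhx58, Zbp1 and Sting1 had no entry in the table.

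The members that act on double-stranded or Z-form nucleic acid were higher in H10 cells by smaller amounts. Zbp1, which binds Z-form RNA and DNA and can start necroptosis, had log2 values of 9.11, 9.46 and 9.20 in H10, against 7.91, 8.15 and 8.16 in C8. The lines were 0.95 log2 units apart, and here C8 replicate 1 was the lowest C8 array. Zbp1 was 2.27-fold higher in H10 cells (1.18 ± 0.12 log2 units, estimate ± SE; adjusted p = 0.00607). Eif2ak2 encodes PKR, the kinase that halts translation through eIF2α when it binds double-stranded RNA. Its log2 values were 10.93, 11.20 and 11.19 in H10, against 10.05, 9.91 and 9.81 in C8, 0.88 apart at the nearest. The difference was also 1.18 ± 0.10 log2 units (adjusted p = 0.00386), with an interval for the fold of 1.92 to 2.69.

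Adar, which converts adenosine to inosine in double-stranded RNA and so keeps cellular RNA from MDA5 and PKR, had 10.50, 10.77 and 10.73 in H10, against 9.92, 9.82 and 9.93 in C8. The C8 values lay within 0.11 log2 units of one another, and the H10 values all lay above them. Adar was 1.71-fold higher (0.78 ± 0.09 log2 units, estimate ± SE; adjusted p = 0.00992). Whether the difference was in the interferon-inducible or the constitutive isoform was not tested, since 1 feature reads the gene. Trex1, the cytosolic exonuclease for DNA, had 9.17, 9.40 and 9.35 in H10, against 8.78, 8.80 and 8.79 in C8. It was 1.43-fold higher, with an interval of 1.26 to 1.62 (0.52 ± 0.08 log2 units, estimate ± SE; adjusted p = 0.0254). Both calls depended on single arrays. For Adar the adjusted p was 0.0614 without the third H10 array and 0.0539 without the second C8 array. For Trex1 the adjusted p was 0.109 without H10 replicate 2, 0.132 without H10 replicate 3, and 0.0687, 0.0971 and 0.0991 without C8 replicate 1, 2 and 3.

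The adaptors and the DNA sensor did not pass the test. Mavs, the mitochondrial adaptor of RIG-I and MDA5, had log2 values of 11.01, 10.86 and 11.02 in H10, against 11.19, 10.78 and 11.06 in C8. The H10 values all fell inside the range of the C8 values. Its log2 fold change was -0.05, with a 95% interval of -0.32 to 0.23 (adjusted p = 0.947). Sting1, the receptor for cGAMP, had 10.34, 10.82 and 10.61 in H10, against 10.65, 10.19 and 10.44 in C8. The lines overlapped, and the log2 fold change was 0.16, with an interval of -0.22 to 0.54 (adjusted p = 0.816). As folds of H10 over C8, the intervals ran from 0.860 to 1.46 for Sting1 and from 0.799 to 1.17 for Mavs, so equal expression is not shown.

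Cgas had log2 values of 9.33, 9.22 and 9.19 in H10, against 9.48, 9.62 and 9.37 in C8. All H10 arrays were below all C8 arrays, by 0.04 log2 units at the nearest, a pattern seen in 12.7% of all genes. The log2 fold change was -0.24, with an interval of -0.45 to -0.04 (adjusted p = 0.307, limma). Cgas was the 1 member counted as lower at an unadjusted p under 0.05.

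Cgas lies on chromosome 9 near Cd109, the gene that the study followed up. In the gene table of GRCm38.p6 they are not adjacent, since the protein-coding genes Mto1, Eef1a1 and Slc17a5 and a non-coding gene lie between. Of the measured genes on both sides of Cgas, its direct neighbours Ddx43, a helicase gene of the germ line, and Mto1, a modifier of mitochondrial tRNA, were both lower in H10 cells. Ddx43 had log2 values of 10.03, 9.91 and 10.05 in H10, against 10.86, 10.81 and 10.82 in C8 (-0.83 ± 0.06 log2 units, estimate ± SE; adjusted p = 0.00278). For Mto1, which is read in the opposite direction from a start next to that of Cgas, the values were 10.55, 10.51 and 10.59 in H10, against 11.20, 11.17 and 11.14 in C8 (log2 fold change -0.62, adjusted p = 0.00495). The next genes, Eef1a1 and Slc17a5, differed by -0.10 (adjusted p = 0.572) and by 0.00 log2 units (adjusted p = 1). Cd109 itself was higher, with a difference of 4.19 ± 0.25 log2 units (adjusted p = 0.00119). On the other side, Ooep, Dppa5a, Omt2b and Omt2a did not pass, with -0.10, 0.22, -0.12 and 0.00, and beyond Cd109 the same held for Gm10635, with -0.13.

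**Figure D3:**
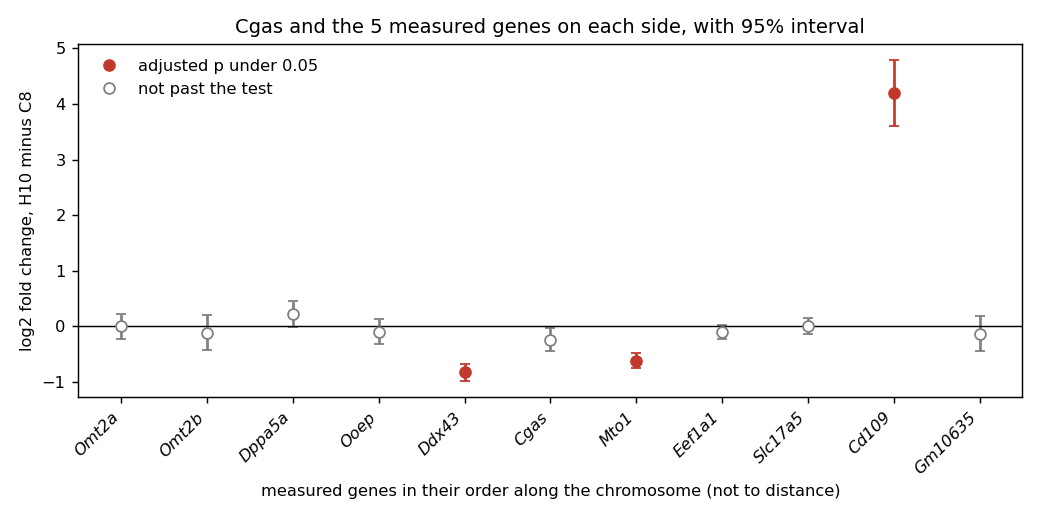
Log2 fold change, H10 minus C8, of Cgas and of the 5 measured genes on each side of it in their order along chromosome 9, with 95% intervals from limma; distances are not drawn. Ddx43 at -0.83 and Mto1 at -0.62 flank Cgas at -0.24, and Cd109 stands at 4.19.

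Trex1 lies on the same chromosome, between Shisa5 and Atrip. A non-coding transcript that joins Atrip and Trex1 overlaps it in the gene table, and whether its feature also reads that transcript was not tested. Atrip, a partner of the DNA damage kinase ATR, differed by -0.03 log2 units (adjusted p = 0.945), and Shisa5 had 0.40 (adjusted p = 0.11). Adar overlaps the receptor gene Chrnb2, which differed by -0.12 log2 units (adjusted p = 0.663). Ifih1 and Dhx58 each overlap a non-coding gene, and Eif2ak2 overlaps a pseudogene, Gm6548, with 0.15 (adjusted p = 0.905), and another gene model.

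Within the lines, the members that were higher in H10 cells shared an order of arrays. In all 7, H10 replicate 1 was the lowest and H10 replicate 2 the highest H10 array, as was also so for Sting1, which did not pass. In 4 of the 7, Ddx58, Ifih1, Dhx58 and Eif2ak2, C8 replicate 1 was in addition the highest C8 array, so that the replicate 1 arrays of the lines stood nearest to each other. The share of all genes with either order was not counted, so neither is shown to be particular to the members. Without the replicate 1 arrays of both lines, the log2 fold changes of Ddx58, Ifih1 and Dhx58 were 3.05, 2.75 and 3.04, and 7 members were still called higher. The array medians ran the other way: replicate 1 had the highest median in H10 (7.72, against 7.69 and 7.70 for replicates 2 and 3) and the lowest in C8 (7.65, against 7.71 and 7.74). With each array centred on its median, 7 members were still called higher. No member had a value under the table median of 7.70 on any array, the lowest being 7.91, but background was not measured.

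Around the sensors, 97 of 108 listed genes of the same pathways were measured by a feature of their own. Of these, 6 were higher in H10 cells, 0 were lower and 91 did not pass the test (14 higher and 5 lower at an unadjusted p under 0.05), and their median log2 fold change was -0.02. Over all 19930 genes, 1.85% were higher and 1.04% lower at the adjusted threshold, and 6.10% and 7.67% at the unadjusted one. Among 13 partners of RNA sensing, 1 was higher, the helicase gene Ddx60, which interferon induces. Ddx60 had log2 values of 8.17, 8.95 and 8.79 in H10, against 6.17, 5.82 and 5.49 in C8. Ddx60 was higher in H10 cells (2.81 ± 0.25 log2 units as measured, estimate ± SE; adjusted p = 0.00396). Its C8 values lie under the lower quartiles of the C8 arrays and, not being shown to exceed background, give no exact fold. Trim25, the ubiquitin ligase that activates RIG-I, differed by 0.44 log2 units (adjusted p = 0.0661), and Rnf135, another such ligase, had -0.15 (adjusted p = 0.75).

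Of 12 kinases, adaptors and transcription factors below MAVS and STING, 1 was higher in H10 cells, Irf7, which amplifies interferon gene transcription. It had log2 values of 12.03, 12.72 and 12.59 in H10, against 8.81, 8.55 and 8.85 in C8 (log2 fold change 3.71, adjusted p = 0.000639). The study chose Irf7 from these arrays, so it is not independent evidence of the list's direction. Tbk1, the kinase on which both routes converge, and Irf3, its constitutive target, differed by -0.05 (adjusted p = 0.885) and by -0.03 log2 units (adjusted p = 0.968). Their 95% intervals ran from -0.20 to 0.10 and from -0.26 to 0.21. Among 10 genes listed as brakes on MAVS signalling, 1 was higher in H10 cells and 9 did not pass. The 1 was Nlrc3, which is known to hold back STING, with a log2 fold change of 0.79 (adjusted p = 0.00216). Tnfaip3, which encodes the deubiquitinase A20, had 0.47 (adjusted p = 0.106). Nlrc5 had 19 features, of which 5 were higher and 0 lower, with log2 fold changes of 0.03 to 0.80, while the brightest, which stands for the gene, had 0.21 (adjusted p = 0.602).

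The list of DNA sensing, STING traffic and cGAMP handling had 17 genes, of which 15 were measured. Ifi204 and Enpp1 had no feature of their own, so their direction is not known here. Of the 15, 0 passed the limma test in either direction, with 0 higher and 1 lower at an unadjusted p under 0.05. Aim2, the inflammasome sensor of DNA, differed by 0.08 log2 units (adjusted p = 0.867). The largest difference was that of Slc19a1, a folate carrier listed here for cGAMP handling, with -0.29 (adjusted p = 0.0943). Of 13 nucleases and related enzymes, 2 were higher in H10 cells. Isg20, an interferon-induced RNA exonuclease, had log2 values of 10.52, 11.45 and 10.89 in H10, against 8.95, 8.29 and 8.45 in C8, a 5.24-fold difference (log2 fold change 2.39, adjusted p = 0.0093). Samhd1, which degrades dNTPs, was 1.33-fold higher (0.42 log2 units, adjusted p = 0.0207). Pnpt1, a mitochondrial RNA exonuclease, had 0.38 (adjusted p = 0.0528).

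Among the partners of ZBP1 in necroptosis, 1 of 5 was higher in H10 cells, Mlkl, the pore-forming executioner, with log2 values of 11.04, 11.17 and 11.12 in H10, against 10.28, 9.58 and 9.56 in C8. Its log2 fold change was 1.30 (adjusted p = 0.0265), and that of Ripk3, the kinase between ZBP1 and MLKL, was 0.09 (adjusted p = 0.847). Of 11 eIF2 kinases and partners, 0 passed the limma test, with 0 higher and 1 lower at an unadjusted p under 0.05. The kinases Eif2ak1, Eif2ak3 and Eif2ak4, relatives of PKR that respond to haem loss, unfolded protein and amino acid loss, had log2 fold changes of -0.08, -0.09 and -0.07. Of the 4 other adenosine deaminases, 0 passed, with 0 higher and 1 lower at an unadjusted p under 0.05, and Adarb1 had -0.07 (adjusted p = 0.871). Of 14 interferon genes of types I and III, 0 passed limma at the adjusted and 0 at the unadjusted threshold, with log2 fold changes of -0.13 to 0.13, and Ifnb1 had 0.09 (adjusted p = 0.885). Ifnb1 had log2 values of 6.37, 6.44 and 6.15 in H10, against 6.13, 6.09 and 6.46 in C8, all under the table median.

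Some of these calls rest on single arrays. For Isg20 the adjusted p was 0.0502 without H10 replicate 3 and 0.0552 without C8 replicate 3. Mlkl passed without C8 replicate 1 (adjusted p = 0.00241), while leaving out any other array gave 0.0774 to 0.117. Samhd1 passed limma without H10 replicate 1 (adjusted p = 0.0493) and without C8 replicate 1 (adjusted p = 0.0409). It did not pass without both of them (adjusted p = 0.0626), and leaving out any other single array gave 0.0818 to 0.125. The count of 6 higher genes was 3 without H10 replicate 3 and 3 without C8 replicate 3. Ddx60, Irf7 and Nlrc3 passed whichever single array was left out.

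**Figure D4:**
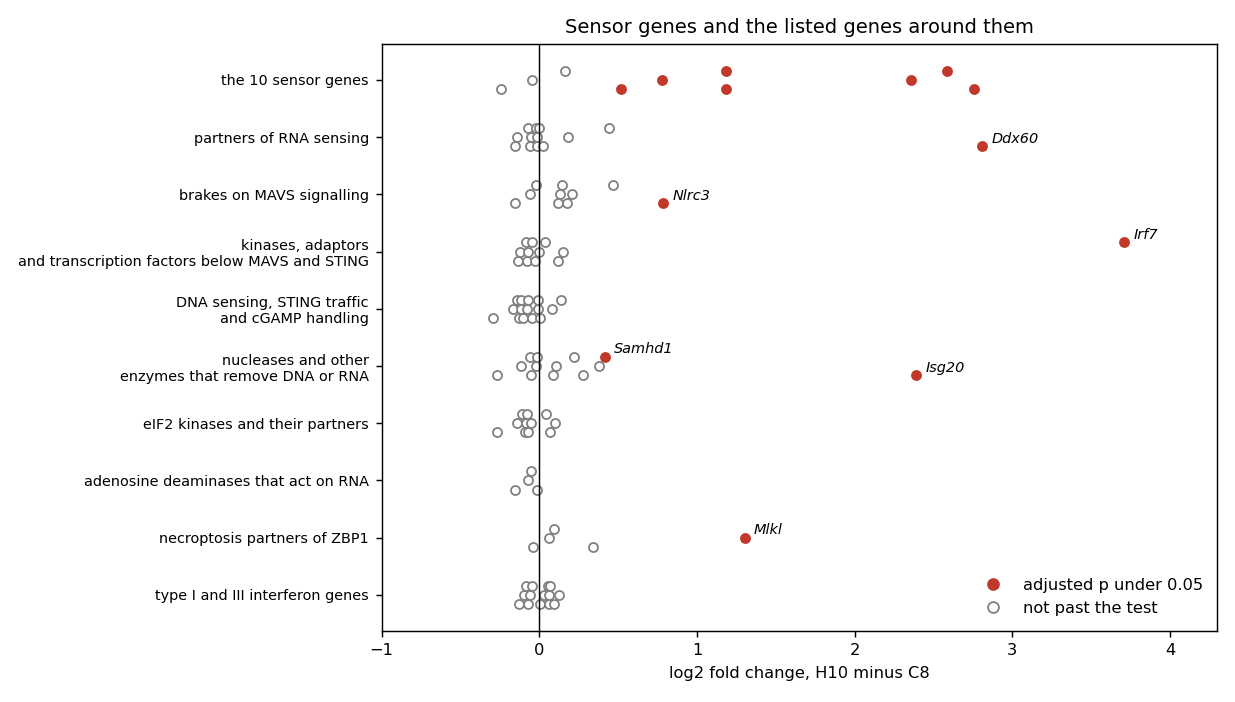
Log2 fold change, H10 minus C8, of the 10 sensor genes (top row) and of the measured genes of 9 lists around them, with filled points for genes past the test; vertical offsets within a row carry no value. The 7 filled points of the top row lie at 0.52 to 2.75, and 6 of 97 genes in the other rows are filled.

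Of 7 macrophage markers, 1 was higher in H10 cells (Adgre1, log2 fold change 2.02) and 0 were lower by limma (3 and 0 at an unadjusted p under 0.05, with Itgam at 0.51 and Fcgr1 at 0.56 log2 units), and their summed log2 values were 80.19 to 81.17 in H10, against 77.09 to 77.75 in C8. Of 7 osteoclast markers, 6 were higher in H10 cells, with summed log2 values of 79.7 to 81.3 in H10, against 67.8 to 70.3 in C8. Their part in the differences of the sensor genes was not tested. For lymphocytes, neutrophils, mesenchymal cells and endothelial or epithelial cells, 22 markers were measured, of which 0 were higher and 0 lower by limma (0 and 2 at an unadjusted p under 0.05), at log2 values of 5.24 to 8.75. The arrays of a line differed by an SD of 0.198 to 0.289 over all features, and arrays of different lines by 0.297 to 0.345.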

How the data were processed

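RNA of H10 and C8 cells, 3 arrays each, was hybridised to Affymetrix Mouse Gene 1.0 ST arrays. The authors deposited log2 values normalized with RMA, which corrects background, equalizes arrays and summarises probes. Expression Console is named in the submitters' processing notes, with its version not given in the sources used here. All 35545 features were used as deposited, with no filter. A feature with 1 annotated symbol (21781) counted for its gene, the brightest one where there were several, which gave 19930 genes; 1621 features with several symbols named none. The lines were compared with limma 3.58.1 (R 4.3.3; 4 residual and 2.57 prior degrees of freedom), by cell line alone, after the methods of the study. Named genes are all members, the largest changes past the test in each list (up to 4 in each direction) with up to 2 chief genes that did not pass, and 5 measured neighbours on each side of Cgas. Genes overlapping or next to other members and further listed genes that did not pass, such as Nlrc5, were named after their values were seen. The members, lists and tests were chosen with earlier results of these data known. The fit was tested on simulated data. Figures used matplotlib 3.10.9. Alternatives were leaving out arrays, a replicate block, median centring, quantile normalization, the removal of dim features (17939 kept), means over features, adjustment over genes, an intensity trend with a robust prior and an FDR of 0.01. A further motif was searched in the same promoter windows and is not reported here.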

Additional observations from a re-analysis of the deposited data

How the results depend on the processing

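Of 150 member values under alternatives, 137 kept their direction and their side of the threshold, 10 kept the direction and no longer passed (Adar 3, Trex1 7), and 3 changed sign, all of Mavs: 0.005 without the second H10 array, 0.043 without the first C8 array and 0.02 when the replicate 1 arrays of both lines were omitted. Leaving out single arrays (leave-one-out) gave Mavs a log2 fold change of -0.162 to 0.043. Ddx58, Ifih1, Dhx58, Zbp1 and Eif2ak2 passed in all 15 alternatives; the highest adjusted p was 0.0499, for Dhx58. At an FDR of 0.01 Trex1 did not pass. The count of members higher was 5 to 7 when single arrays were left out, and that of members lower 0. Pathway genes higher numbered 3 to 7 without single arrays, 3 with the replicate block, 4 at an FDR of 0.01 and 10 with means over features. They numbered 9 with the filter on dim features, 8 with adjustment over genes and 8 with the intensity trend. Of pathway genes not past the main test, Pnpt1 was higher in 6 of 15 alternatives, Trim25 in 5, Tnfaip3 in 2 and Nlrc5 in 1. Pathway genes lower numbered 1 with the filter on dim features and 1 with the intensity trend, Slc19a1 in both. Deviations of same-numbered arrays from their line means correlated at 0.166, -0.0043 and -0.121 over all features. Differently numbered arrays gave -0.182 to 0.227. Over the 10 members, same-numbered arrays gave -0.705, -0.389 and -0.48, and differently numbered arrays -0.714 to 0.796. Differently numbered arrays thus gave values as large as same-numbered ones. These values cannot decide whether the replicate numbers pair the arrays or mark a shared batch. With the replicate block 5 members were higher, Adar (adjusted p = 0.0517) and Trex1 (adjusted p = 0.0775) not passing. Signal over background was not measured, which limits statements on dim genes such as Ifnb1.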

Other observations

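The difference of the RIG-I-like receptors between the lines was set beside the rest of the DExD/H-box helicases, a choice made after seeing the data. Of 51 measured genes with Ddx or Dhx symbols, 4 were higher in H10 cells, Ddx58, Dhx58, Ddx60 and Ddx24, and 2 were lower, Ddx43 and Ddx10. Over all genes, 1.85% were higher and 1.04% lower by the same rule. The 49 other than Ddx58 and Dhx58 had a median log2 fold change of -0.03. Ddx24, a nucleolar helicase known to hold back RIG-I signalling, had log2 values of 11.15, 11.28 and 11.27 in H10, against 10.91, 10.78 and 10.80 in C8 (log2 fold change 0.40, limma adjusted p = 0.044). Ddx10, which acts in ribosome assembly, had 11.26, 11.18 and 11.19 in H10, against 11.72, 11.67 and 11.60 in C8, with a log2 fold change of -0.45 (limma adjusted p = 0.0203). The calls of Ddx24 and Ddx10 were not tried with single arrays left out. Among these 49, the highest after Ddx60 (2.81) was Ddx24.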
